A study of Mus musculus with 1920 samples.

Results

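Microglia of the cerebral cortex were compared with microglia of the hippocampus, region against region, in mice that had received no treatment. The cells were chosen by their labels: wells labelled as cortex, replicates 1 to 4, or hippocampus, replicates 1 to 4, which were sequenced on the same 384-well plate. Of 380 such wells, 330 passed the limits on read depth and quality given with the processing, out of 1644 of 1900 in the whole series. Both groups came from CD1 mice of 16 weeks, an outbred strain, with no treatment and no genotype named in the labels. After perfusion with saline and a density gradient, single cells stained for CD11b, CD45, Ly6C, Ly6G and CD206 were sorted into lysis buffer, and each well became 1 Smart-seq2 library, which covers whole transcripts and counts reads without molecular identifiers. According to the design text, each condition had 3 to 4 mice and each untreated mouse gave several regions. The labels do not say whether cortex replicate 1 and hippocampus replicate 1 were 1 mouse, so the main fit did not pair replicates. That edgeR fit took all untreated regions together. Its p-values thus rest on the spread between replicates in all of them, including regions on other plates. The exact permutation tests used the cortex and hippocampus replicates only.

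Microglia are the resident macrophages of the brain. At rest they carry a characteristic set of surface receptors, among them the purinergic receptor P2ry12, through which they sense nucleotides released by nearby cells. On injury, in ageing and in models of neurodegeneration many of them lower these genes and raise a set that includes the lipid carrier Apoe and the secreted phosphoprotein Spp1 (osteopontin). These 3 genes served as markers here.

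The cortex contributed 176 cells of 190 wells, with 47, 46, 43 and 40 cells in its 4 replicates. The hippocampus contributed 154 cells of 190 wells, with 46, 39, 38 and 31 cells. Counts were summed over the cells of a replicate, which gave 4 sums against 4. The cortex sums held 12681900 to 13736942 gene counts and the hippocampus sums 9377636 to 10835358. The share of wells kept was 92.6% ± 5.15 in cortex and 80.9% ± 11.7 in hippocampus (SD, n = 4 replicates each, here and below). Spike-in RNA took a median of 8.13% ± 1.5 of the counts of a cortex cell and 10.7% ± 1.49 of a hippocampus cell. The median gene count of a cell was 306658.5 ± 29990 in cortex and 261490.9 ± 44312 in hippocampus. The median cell had 2857 ± 132 detected genes in cortex and 2713 ± 153 in hippocampus. None of the 5 quality measures compared passed an exact two-sided permutation test (adjusted p = 0.229 for each), but 4 replicates against 4 cannot give an unadjusted p below 0.0286. Cortex wells filled the left side of the plate and hippocampus wells the right side, so region and plate position cannot be told apart.

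The markers showed microglia in both regions. All 12 of the genes listed as defining microglia were read in 89.4% or more of the cells, and P2ry12 was read in every one of the 330. Of the markers of other cells the sort could hold, some were absent: the red cell gene Hba-a1, the neutrophil gene S100a8, the monocyte gene Ly6c2 and the border macrophage gene Cbr2 had 0 reads in both regions. Others of the same lists were present. Ccr2, a chemokine receptor of monocytes, was read in 82 of the 330 cells, and the neutrophil genes Retnlg and Ngp and the red cell gene Alas2 in 3, 4 and 7 cells. As unscaled CPM (counts per library size, before the TMM factor), the 8 monocyte markers summed to 19.6 to 61.4 in cortex and 59.4 to 87.9 in hippocampus, the neutrophil markers to 0 to 4.87 and 1.16 to 7.46, and the red cell markers to 0 to 6.99 and 0 to 5.33. Astrocyte markers summed to 251 to 342 and 231 to 365.6, mostly through the glutamate transporter Slc1a3, read in 57.6% of the cells at 288 ± 43.9 and 265 ± 46.5 CPM. The border macrophage receptor Mrc1 had 12 reads in cortex and 7 in hippocampus. The summed level of all 8 border macrophage markers was 0.150 to 7.81 unscaled CPM in cortex sums and 0.107 to 10.5 in hippocampus sums. The B cell list stood higher, at 431 to 758 CPM in cortex and 622 to 953 in hippocampus, through a single member: Ighm, which encodes an immunoglobulin heavy chain, was read in 252 cells, while Cd79a, a part of the B cell receptor, was at 0 in cortex and at 1.18 ± 1.44 CPM in hippocampus. Oligodendrocyte markers summed to 131 to 158 CPM in cortex and 141 to 223 in hippocampus, and neuron markers to 12.5 to 60.0 and 38.8 to 71.5. The part of these cells in the comparisons below was not tested. Reads also reached empty wells: 3 of the 4 wells of this plate labelled negative had a P2ry12 read, at a median of 669.5 gene counts per well.

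P2ry12 (chromosome 3, 59216272 to 59262871; all positions here are on mouse build GRCm38) was high and close to equal in the 2 regions. Its scaled level was 9528, 10980, 11574 and 9929 CPM in cortex replicates 1 to 4 and 10058, 9192, 8665 and 10056 CPM in hippocampus replicates 1 to 4. The ranges overlapped, with 2 cortex replicates above every hippocampus replicate and 2 among them. The means, 10503 ± 941 and 9493 ± 687 CPM, gave a log2 fold change of 0.15 ± 0.11 (standard error; cortex over hippocampus, edgeR adjusted p = 0.828). The 95% interval from limma-voom ran from -0.05 to 0.33, so these samples allow no difference in P2ry12 beyond about that size. In the 4 other untreated regions, which were on other plates, mean P2ry12 was 7416 ± 691 CPM in corpus callosum, 7255 ± 368.3 in cerebellum, 7086 ± 570 in facial nucleus and 6182 ± 1243 in spinal cord. Cortex and hippocampus held the highest 2 means, and their own ranges could not be separated.

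Apoe (chromosome 7, 19696109 to 19699188), a carrier of cholesterol and other lipids, had a higher mean in hippocampus, but its replicates scattered widely. In cortex its level was 181, 398, 655 and 537 CPM and in hippocampus 334, 1960, 1370 and 587 CPM. Hippocampus replicates 2 and 3 stood above every cortex replicate, whereas replicates 1 and 4 lay inside the cortex range. The means were 443 ± 204 and 1063 ± 743 CPM, a log2 fold change of -1.26 ± 1.18 that did not pass the test (edgeR adjusted p = 0.938). The interval, from -2.22 to 0.08, spans a fall of more than 4-fold as well as no change, and without hippocampus replicate 2 the fold change was -0.79.

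The leading cell of each replicate held 63.7%, 21.9%, 54.8% and 37.0% of the Apoe reads in hippocampus replicates 1 to 4 and 38.1%, 24.7%, 15.1% and 21.9% in the cortex replicates. Hippocampus replicate 2, the highest, was thus not led by a single cell, whereas a single cell gave most of the reads in replicates 1 and 3. The share of cells in which Apoe was read differed less between regions than its level. With each cell thinned to 20000 counts, Apoe was read in 23.4%, 52.2%, 41.9% and 35% of cells in the cortex replicates and in 26.1%, 61.5%, 47.4% and 35.5% in the hippocampus replicates. The mean shares, 38.1% ± 12.1 and 42.6% ± 15.3, did not pass an unpaired exact permutation test (adjusted p = 1.0), and the ranges of the regions lay over each other. Set side by side by replicate number, both the share and the level were higher in hippocampus at every number. The labels do not give this pairing, and the shares were not tested in pairs. With replicate number as a block over 6 regions, the log2 fold change of the level was -0.88 (edgeR adjusted p = 0.981). Unthinned, the mean shares were 51.3% and 57.6%.

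Spp1 (chromosome 5, 104435118 to 104441050) was rare in both regions. Its level was 0, 8.63, 0 and 5.41 CPM in the cortex replicates and 0.64, 0, 22.4 and 206 CPM in the hippocampus replicates. Replicate 4 of hippocampus alone stood apart, and within it 1 cell of 31 held 1745 of 1748 Spp1 reads. In cortex 2 cells had any Spp1 read, with 102 and 70 reads. The log2 fold change was -4.02 ± 2.41 (edgeR adjusted p = 0.647) and became -1.13 when hippocampus replicate 4 was left out.

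**Figure D1:**
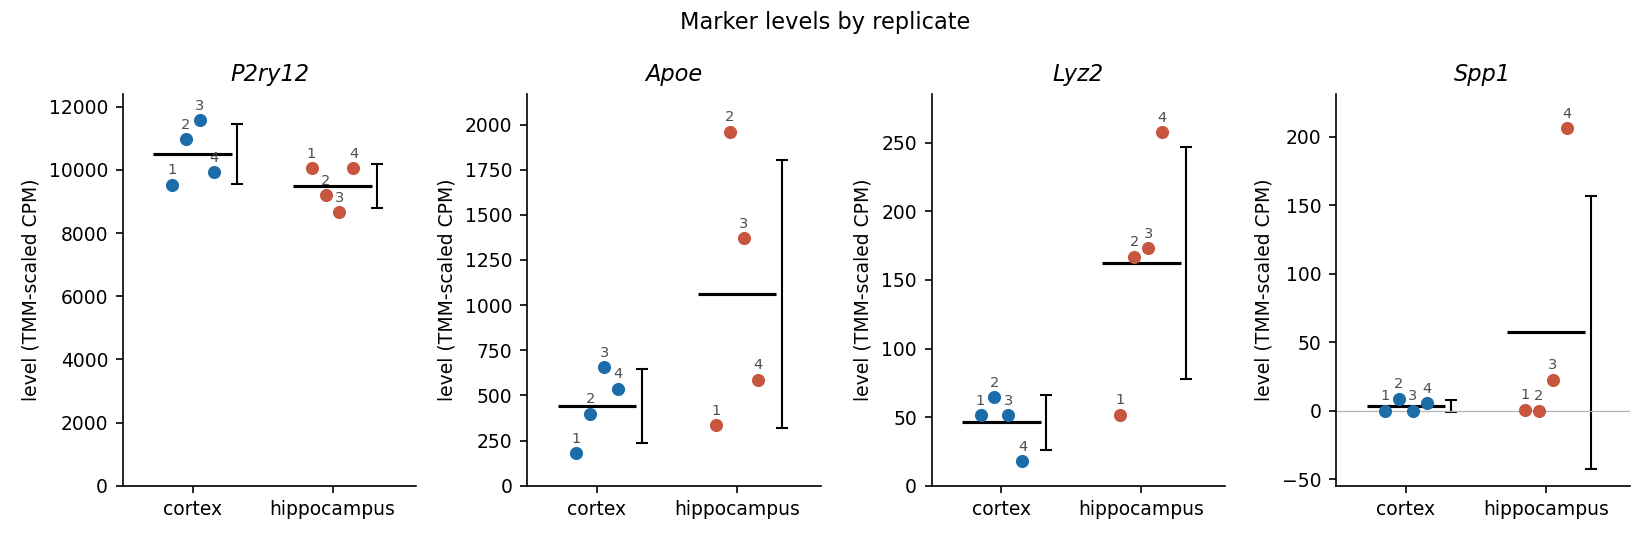
Level of P2ry12, Apoe, Lyz2 and Spp1 in each replicate sum (vertical axes: TMM-scaled CPM, each starting at or below 0; numbers beside points: replicate; horizontal line: mean; bar at the right: SD over 4 replicates). P2ry12 lies between 8665 and 11574 CPM in all 8 sums, whereas the Apoe, Lyz2 and Spp1 means of hippocampus rest on some of its replicates only.

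Across the whole transcriptome no gene was called between the regions by edgeR. Of 22907 genes tested, 0 had an adjusted p under 0.05 (0.0% called) and the smallest adjusted p was 0.321, for the antisense gene Gm26714. An unadjusted p under 0.05 was reached by 2353 genes (10.3%). When edgeR was fitted on cortex and hippocampus alone, 399 of 13774 genes reached an unadjusted p under 0.05 and 0 were called. The count at this threshold thus depended on the regions fitted. Among the 4452 genes read in at least 20% of the cells, called widely read from here on, 153 (3.44%) reached it in the main fit. DESeq2, run on the same sums, called 731 genes (3.19%), 229 higher (1.0%) and 502 lower (2.19%) in cortex. limma-voom called 10 genes (0.0437%), none of them widely read. Counted without a test, the 4 cortex replicates lay above all 4 hippocampus replicates for 271 genes (1.18%) and below them for 260 (1.14%).

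The genes that DESeq2 called were read in few cells. Their median was 2 cells with a read, against 13 cells over all genes tested, and 238 of the 731 were read in 1 cell only. In the median called gene 83.0% of the reads came from 1 cell, against 26.9% over all genes, and 608 of the 731 had no read in 1 of the 2 regions. DESeq2 run on the widely read genes alone called 0 of 4452, with 228 at an unadjusted p under 0.05. Of the 731, 13 were widely read, and 9 of these are described below. The other 4, Cebpb, Cops9, Jmjd1c and Gm10719, fell outside the rule for named genes and are named after their calls were seen.

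**Figure D2:**
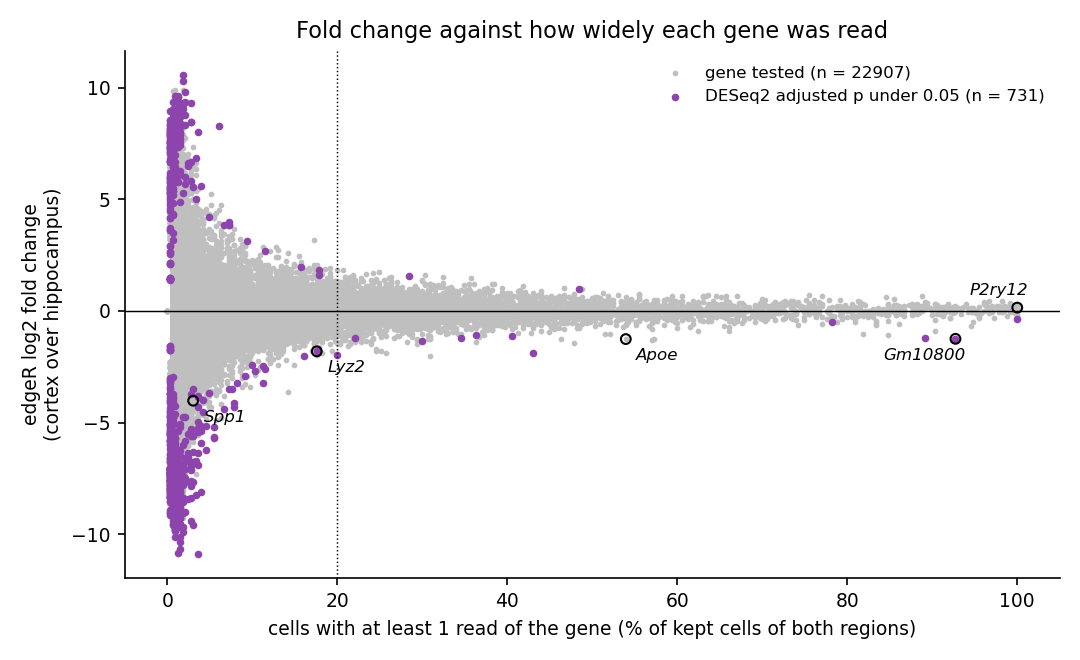
The edgeR log2 fold change (vertical axis, cortex over hippocampus) against the percentage of kept cells with a read (horizontal axis) for the 22907 genes tested, with the 731 DESeq2 calls in purple and a dotted line at 20% of cells. The calls crowd at the left edge, where folds are largest, and 13 of them lie to the right of the line.

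How firmly a gene could be compared depended on its level. Among the 83 genes with a mean of at least 1000 CPM, the median width of the 95% interval was 0.67 on the log2 scale, and the interval of 81 lay wholly within a 2-fold change. Among the 4452 widely read genes the median width was 1.89, and 1276 (28.7%) had an interval within a 2-fold change. For the remaining genes the interval does not exclude a 2-fold difference. Over the widely read genes the replicate sums of cortex correlated with each other at 0.837 to 0.870 (Pearson, log scale, across genes, which are not independent), those of hippocampus at 0.759 to 0.803, and cortex with hippocampus sums at 0.778 to 0.860. The median was 0.852 within cortex, 0.789 within hippocampus and 0.821 between the regions, so hippocampus sums were less alike than sums of different regions. Hippocampus replicate 4 lay farthest from the others on the first principal component, which held 22.1% of the variance, and hippocampus replicate 2 on the second, which held 16.7%.

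The most abundant transcripts were those of the resting microglial and lysosomal programme, and their means differed little between the regions. Of the 10 most abundant genes, all but Sparc had the higher fitted level in cortex. Cst3, which encodes the protease inhibitor cystatin C, was at 61087 ± 3252 CPM in cortex and 57036 ± 5480 CPM in hippocampus (log2 fold change 0.10 ± 0.10). Csf1r, the receptor for the survival factor CSF1, was at 8585 ± 644 and 7138 ± 835 CPM, the widest gap of the 10 most abundant genes (0.27 ± 0.14, edgeR adjusted p = 0.529). The fold changes of Ctss, Ctsd, P2ry12, Cx3cr1, Lgmn, Itm2b and Sparc, also in that group, lay between -0.03 and 0.20. The cathepsins Ctss and Ctsd and the protease Lgmn act in the lysosome, and Cx3cr1 receives the neuronal chemokine fractalkine.

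None of the members of the lists below was called by edgeR, so they are described by counts, beside 2282 of 4452 widely read genes with a higher mean in cortex and a median log2 fold change of 0.01 over all of these. Of 20 homeostatic genes, 17 had a higher fitted level in cortex and 3 a lower one, with a median of 0.11, and no member separated the replicates of the regions. Upper-quartile, RLE and DESeq2 scaling lowered all genes alike: 2087, 1976 and 1976 of the 4452 were then higher in cortex, with medians of -0.03, -0.05 and -0.05. The homeostatic count was 14 of 20 under each of them, and its median stayed 0.094 to 0.095 above that of all widely read genes. Siglech, a microglial lectin, had the smallest p: 2937, 3118, 4048 and 3233 CPM in cortex and 2530, 2265, 3272 and 2377 CPM in hippocampus (0.35 ± 0.17, edgeR adjusted p = 0.486). Only hippocampus replicate 3 reached into the cortex range. Trem2, the lipid-sensing receptor that opens the disease-associated state, was on the other side, with a mean of 1345 CPM in cortex and 1662 CPM in hippocampus (-0.31).

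Receptors for nucleotides and adenosine gave like counts. Of 7 widely read purinergic genes, 6 had a higher fitted level in cortex (median 0.15), and 5 did under the 3 other scalings, while the median stayed 0.130 to 0.133 above that of all widely read genes. One of them separated the replicates: Adora3, an adenosine receptor, was at 193, 301, 216 and 198 CPM in cortex and 154, 151, 178 and 171 CPM in hippocampus. Replicates did not overlap in this direction for 1.98% of the widely read genes, 88 of 4452, and its edgeR adjusted p was 0.674. Of 14 widely read transcription factors that maintain microglia, 10 had a higher level in cortex (median 0.11) and 9 under RLE and DESeq2 scaling, with the median 0.095 to 0.099 above that of all widely read genes throughout. Sall1, which holds microglial identity, was at 638 and 545 CPM (0.23).

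No gene of the disease-associated state was called by edgeR, whereas DESeq2 called Igf1 and Lyz2. Of 25 tested members, 20 had a lower fitted level in cortex, with a median log2 fold change of -0.41, beside 12028 of 22907 lower and a median of -0.07 over all genes tested. Of its 14 widely read members, 11 were lower, with a median of -0.07. The count was 12 of 14 under RLE and DESeq2 scaling, 11 under upper-quartile scaling, 9 with no filter on wells, and 8 with the stricter filter or with each cell given equal weight. Fth1, the heavy chain of the iron store ferritin, was at 1051, 1047, 958 and 705 CPM in cortex and 872, 2351, 975 and 1876 CPM in hippocampus. Hippocampus replicates 2 and 4 were high, and replicates 1 and 3 lay inside the cortex range (-0.69 ± 0.24, edgeR adjusted p = 0.478). The mean of log values per cell placed Fth1 at 0.06 in the other direction.

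Lyz2 (chromosome 10, 117277334 to 117282274), which encodes the bacteria-digesting enzyme lysozyme of macrophages and neutrophils, had the smallest p of this list. It was at 51.4, 64.5, 51.2 and 17.8 CPM in cortex and at 51.8, 167, 173 and 258 CPM in hippocampus. Hippocampus replicates 2, 3 and 4 were above every cortex replicate, and replicate 1 was level with the cortex. Lyz2 was read in 7.5% to 19.6% of the cells of a cortex replicate and in 8.7% to 29.0% of a hippocampus replicate, so most cells of both regions had no read. The log2 fold change was -1.81 ± 0.46 (edgeR adjusted p = 0.478), and DESeq2 gave an adjusted p of 0.00389. Mean levels in the other untreated regions, on other plates, were 123 to 213 CPM, all above the cortex mean of 46.2 CPM. Of the 5 monocyte markers tested, 4 also had a lower level in cortex and Fn1 a higher one. The summed ranges of the list, given above, barely overlapped. Ccr2 was at 2.97, 21.6, 2.96 and 50.02 CPM in cortex and at 19.4, 27.6, 14.1 and 90.4 CPM in hippocampus. In hippocampus it was highest in replicate 4, where Lyz2 was highest too. In cortex it was also highest in replicate 4, where Lyz2 was lowest. Vcan, another monocyte marker, was at 0 CPM in hippocampus replicate 4. The monocyte gene Ly6c2 was at 0 in both regions, and the part of monocytes in the Lyz2 difference was not tested.

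Several members of this list rested on very few cells. Igf1, the growth factor, was at 0.06 ± 0.04 CPM in cortex and 7.81 ± 8.35 CPM in hippocampus. It was read in 3.03% of the cells, and its DESeq2 adjusted p was 0.000385. Axl, a receptor for dying cells, was at 0, 4.65, 4.69 and 0.08 CPM in cortex and at 0.18, 79.8, 17.4 and 4.71 CPM in hippocampus, where replicate 2 led. Itgax was read in 4.85% of the cells and Cst7, a cystatin of the disease-associated state, was at 10.4 CPM in both regions.

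**Figure D3:**
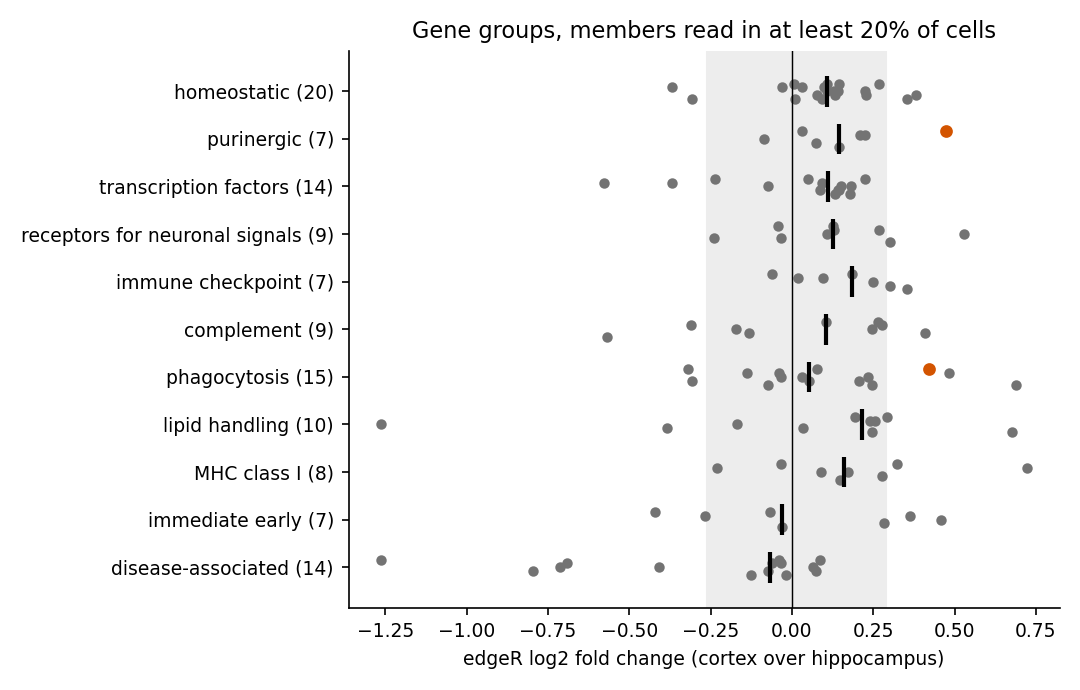
The edgeR log2 fold change (horizontal axis, cortex over hippocampus) of the widely read members of 11 gene groups (rows, with the number of members). Orange points are the genes whose 4 cortex and 4 hippocampus replicates did not overlap, black bars are group medians, and the grey band holds the central part, from the lower to the upper quartile, of all 4452 widely read genes. Medians lie between -0.07 and 0.22 and most points lie inside or near the band.

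Among immune genes the class I antigen presentation molecule H2-D1 and the cytokine Il1a had higher means in cortex. H2-D1 (chromosome 17, 35262730 to 35267499) was at 367.7, 782, 524 and 514 CPM in cortex and 203, 531, 270 and 321 CPM in hippocampus, with hippocampus replicate 2 inside the cortex range (0.72 ± 0.27, edgeR adjusted p = 0.478). Of 8 widely read class I genes 6 had a higher level in cortex (median 0.16), also under upper-quartile, RLE and DESeq2 scaling. B2m, the partner chain of every class I molecule, was at 2287 and 2338 CPM (-0.03). Il1a (chromosome 2, 129299610 to 129309972), an alarm cytokine that microglia hold at rest, was at 261, 225, 182 and 216 CPM in cortex and 76.2, 94.2, 156 and 92.8 CPM in hippocampus. Its replicates did not overlap (1.08 ± 0.34, edgeR adjusted p = 0.478), as for 1.98% of the widely read genes in this direction. It was read in 33.3% of the cells. Cd74, the class II invariant chain, was at 6.64, 8.88, 18.8 and 24 CPM in cortex and at 0, 64.2, 4.95 and 203 CPM in hippocampus, where replicates 2 and 4 were high and 1 and 3 low. Hippocampus replicate 4 was also the highest for Lyz2 and Ccr2, and the part of monocytes was not tested here either. Of 7 class II genes tested, 6 had the lower level in cortex, and 2 were widely read.

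Inducible genes ranged from widely read to nearly absent. The immediate early genes Klf6, Btg2 and Jun, which respond quickly to stimulation, were read in 61.8%, 58.5% and 31.5% of the cells, and Fos in 0.909%. Klf6 was at 164 ± 58.8 CPM in cortex and 219.9 ± 36.1 CPM in hippocampus (-0.42), and Jun at 73.8 ± 10.0 and 53.7 ± 41.1 CPM (0.46). Of 18 immediate early genes tested, 7 were widely read, 3 with the higher and 4 with the lower level in cortex. The chemokine genes Ccl3 and Ccl4, which microglia switch on quickly when disturbed, were read in 1.21% and 1.52% of the cells, and 93.8% and 93.0% of their reads came from 1 cell. The interferon-induced gene Ifit3 was read in 1.82% of the cells.

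Dividing cells were few. Mki67, expressed in cycling cells, was at 42.6, 0.42, 0.08 and 2.24 CPM in cortex and 0.55, 0, 0 and 0.94 CPM in hippocampus, so that cortex replicate 1 alone stood apart. Of 24 cell cycle genes tested, 18 had a higher fitted level in cortex (median 0.70), but only 2 of them were widely read. Replicates did not overlap for 1 of the 24, beside 271 of all 22907 genes tested (1.18%) in this direction.

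Phagocytosis genes were near the background, and complement genes had a median somewhat above it. Of 9 widely read complement genes, 5 had a higher level in cortex (median 0.11), also under upper-quartile, RLE and DESeq2 scaling. The median stayed 0.088 to 0.092 above that of all widely read genes. C1qb, a chain of the recognition protein that tags synapses and debris, was at 6064, 7062, 6049 and 6143 CPM in cortex and 3996, 7012, 4554 and 5349 CPM in hippocampus, with hippocampus replicate 2 level with the cortex (0.28 ± 0.14, edgeR adjusted p = 0.52). Of 15 widely read phagocytosis genes, 9 had a higher level in cortex, 8 under upper-quartile and 7 under RLE and DESeq2 scaling, with the median 0.036 to 0.039 above that of all widely read genes throughout. Fcgr3, a receptor for antibody-coated targets, did not overlap between regions, as for 1.98% of the widely read genes in this direction. It was at 1717, 1788, 2327 and 2316 CPM in cortex and 1407, 1528, 1603 and 1550 CPM in hippocampus. Its log2 fold change was 0.42 ± 0.16 (edgeR adjusted p = 0.478).

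Of 10 widely read genes of lipid handling, Apoe included, 7 had a higher level in cortex (median 0.22) and 6 under the 3 other scalings, with the median 0.201 to 0.207 above that of all widely read genes throughout. Abca1 and Abcg1, which pump cholesterol out of the cell, were at 267 and 428 CPM in cortex and 234 and 358 CPM in hippocampus, fold changes of 0.19 and 0.25. Of 9 widely read receptors through which microglia receive signals from neurons, 6 had a higher level in cortex (median 0.13). Cx3cr1 was at 8330 ± 573 and 7726 ± 511 CPM (0.11 ± 0.09, edgeR adjusted p = 0.90). Of 7 widely read immune checkpoint genes, 6 had a higher level in cortex (median 0.19) and 5 under the 3 other scalings, with the median 0.170 to 0.173 above that of all widely read genes throughout. Vsir, an inhibitory checkpoint ligand, was at 2798 ± 265 and 2621 ± 152 CPM (0.09).

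The share of cells with a read was compared for 22 panel genes after thinning every cell to 20000 counts, and no gene passed (exact permutation test, smallest adjusted p = 0.629). A single gene could not have passed: with 4 replicates against 4, the smallest p of 0.0286 becomes 0.629 when adjusted over 22 genes. The largest gap was in Lag3, an inhibitory immune checkpoint receptor. It was read in 51.1%, 69.6%, 55.8% and 65.0% of the cells of the cortex replicates and in 32.6%, 51.3%, 36.8% and 35.5% of those of the hippocampus replicates. The highest hippocampus replicate just passed the lowest cortex replicate (means 60.4% ± 8.43 and 39.1% ± 8.34, unadjusted exact permutation p = 0.0571). The level of Lag3 differed less, at 356 ± 137 CPM and 289 ± 106 CPM (0.30 ± 0.36, edgeR adjusted p = 1.0). No Lag3 read was found in the 4 negative wells.

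H2-D1 showed the same order, with a read in 57.4%, 69.6%, 74.4% and 75% of cortex cells and in 39.1%, 59.0%, 52.6% and 58.1% of hippocampus cells (unadjusted exact permutation p = 0.0857). Of the 4 negative wells, 2 had an H2-D1 read. Jun was read in 24.5% ± 1.83 and 16.9% ± 6.52 of the cells, and hippocampus replicates 1 and 2 were level with the cortex. Mbp, a myelin transcript, was read in 6.38% ± 4.81 of cortex cells and 10.4% ± 2.99 of hippocampus cells. Cells of the hippocampus had a higher mean spike-in share and a lower median count, as given above, and the part of this in the shares was not tested beyond the thinning.

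**Figure D4:**
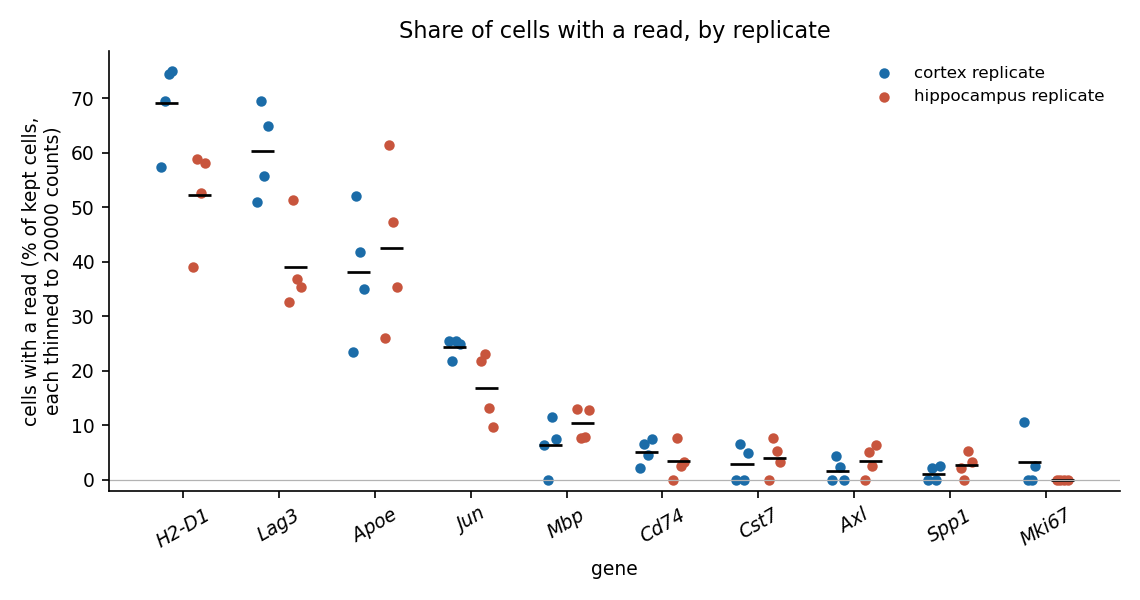
Percentage of kept cells with at least 1 read (vertical axis), each cell thinned to 20000 counts, for 10 genes of the panel (horizontal axis), with 1 point per replicate and a line at the mean of 4 replicates. Lag3 runs from 51.1% to 69.6% in cortex and from 32.6% to 51.3% in hippocampus, whereas the Apoe points of the regions lie over each other.

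The 10 genes with the smallest p among those higher in cortex were I830077J02Rik, Sumf1, Tug1, Il1a, Ggt5, Cops4, 1700017B05Rik, Spty2d1, Fbxw11 and Pxn, each at an edgeR adjusted p of 0.478. In 5 of the 10 the replicates did not overlap, where 1.98% of the widely read genes, 88 of 4452, did not overlap in this direction. I830077J02Rik (chromosome 3, 105924358 to 105932664) was at 287, 252, 243 and 287 CPM in cortex and 137, 186, 116 and 97.8 CPM in hippocampus (0.99 ± 0.26, DESeq2 adjusted p = 0.00197). Adora3, described above, lies beside it on chromosome 3, at 105870858 to 105908926. Sumf1, which activates the sulfatases of the lysosome, was at 124, 193, 175 and 134 CPM in cortex and 87.5, 67.5, 18.8 and 35.6 CPM in hippocampus (1.58 ± 0.47, DESeq2 adjusted p = 0.0335). Every cortex replicate of both genes was above every hippocampus replicate. Ggt5, an enzyme of glutathione and leukotriene metabolism, was at 146 ± 47.0 and 47.5 ± 28.3 CPM, and Fbxw11, part of a ubiquitin ligase, at 116 ± 21.1 and 42.8 ± 24.5 CPM. Tug1, a long noncoding RNA, was at 155 ± 43.4 and 55.4 ± 45.0 CPM, with hippocampus replicate 3 inside the cortex range.

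The 10 with the smallest p among those lower in cortex were Gm10800, Gm10801, Pcyox1, Cct4, Mindy2, Slc25a3, Fth1, Cdca4, Sema4g and CT010467.1, at edgeR adjusted p of 0.45 for Gm10800 and 0.478 for the others. Replicates did not overlap in 7 of the 10, where 1.35% of the widely read genes, 60 of 4452, did not overlap in this direction. These 20 genes were picked for their p, so their separation is a description. Cct4, a subunit of the chaperonin that folds actin and tubulin, was at 80.7, 193, 206 and 134 CPM in cortex and 414, 316, 245 and 357 CPM in hippocampus (-1.12 ± 0.34, DESeq2 adjusted p = 0.0199). Slc25a3, which brings phosphate into mitochondria, was at 365.3, 249, 208 and 228 CPM in cortex and 389, 435, 478 and 476 CPM in hippocampus (-0.76 ± 0.26). Mindy2, a deubiquitinase, was at 74.4 ± 18.5 and 171 ± 62.1 CPM (DESeq2 adjusted p = 0.00611). All 4 hippocampus replicates were above all 4 cortex replicates in these 3 genes. Pcyox1, at 63.1 ± 8.13 and 163 ± 102 CPM, and Cdca4, at 64.4 ± 7.6 and 148 ± 94.2 CPM, varied most within hippocampus.

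The smallest p of any widely read gene belonged to Gm10800, a predicted gene on chromosome 2 at 98666547 to 98667301, followed by Gm10801 beside it at 98662237 to 98664083. Gene models here and at the start of chromosome 9 are known to hold satellite repeat sequence, which is present in many copies in centromeres, so reads from elsewhere in the genome can be counted to them. The last coding exon of each is shown because it makes this shared sequence visible. Capitals mark bases in runs of at least 25 bases that also occur in the transcript of the partner gene (GENCODE vM21 transcripts, build GRCm38, written in the direction of transcription).
Gm10800, chr2:98666547-98666669, minus strand: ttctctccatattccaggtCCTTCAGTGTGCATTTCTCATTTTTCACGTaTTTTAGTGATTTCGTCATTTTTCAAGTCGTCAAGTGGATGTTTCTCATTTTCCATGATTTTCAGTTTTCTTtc
Gm10801, chr2:98663961-98664083, plus strand: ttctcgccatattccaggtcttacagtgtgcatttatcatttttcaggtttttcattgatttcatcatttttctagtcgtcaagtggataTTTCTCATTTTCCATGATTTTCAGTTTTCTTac
In the exon of Gm10800, 101 of 123 bases lie in such runs, and in that of Gm10801 31 of 123. Over whole transcripts, 32.4% of the 25-base words of Gm10800 and 35.1% of those of Gm10801 occur in the partner, and 36.0% and 31.7% occur in the chromosome 9 entries. Reads of these entries may thus have been assigned to either entry or dropped, and their levels are uncertain one by one.

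Gm10800 was at 487, 432, 358 and 281 CPM in cortex and 1247, 958, 699 and 811 CPM in hippocampus (-1.25 ± 0.26, edgeR adjusted p = 0.45, DESeq2 adjusted p = 0.0012). Gm10801 was at 94.7, 102, 85.0 and 58.1 CPM in cortex and 262, 195, 160 and 171 CPM in hippocampus (-1.21 ± 0.29, DESeq2 adjusted p = 0.00213). Neither gene's replicates overlapped, and both were read in about 90% of the cells (92.7% and 89.1%), and the leading cell held 2.89% and 3.34% of the reads. With each cell given equal weight, Gm10800 was the 1 gene that edgeR called, at a log2 fold change of -1.64 and an adjusted p of 0.0283.

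The annotation holds 12 entries of this kind at both places, grouped here after their values had been seen and given without a test. Of these, 9 passed the filter on low counts, and each of the 9 had a lower fitted level in cortex; they are near-copies of shared repeat sequence and not separate observations. As a share of all gene counts the 12 took 0.0605%, 0.0547%, 0.0448% and 0.0359% in the cortex replicates and 0.167%, 0.117%, 0.0929% and 0.0982% in the hippocampus replicates. Each hippocampus replicate exceeded each cortex replicate. The share was larger still in wells that failed the limits, 1.78% of 363423 counts in 14 cortex wells and 0.820% of 1505112 counts in 36 hippocampus wells, and it was 0.0112% of 8926 counts in the 4 negative wells. More hippocampus wells failed, and the mean spike-in share of kept wells was higher there. The part of well quality in this difference was not tested. With a stricter limit of 50000 counts and 1000 genes per well, the log2 fold change of Gm10800 was -1.19. Of the 6 untreated regions, cortex had the lowest mean of Gm10800, 390 CPM, and hippocampus, on the same plate, the next lowest, 929 CPM. The 4 regions on other plates had means of 1002 to 2004 CPM, and region and plate cannot be told apart there.

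CT010467.1 (chromosome 17, 39846353 to 39848827) is annotated as ribosomal RNA and is also present in many copies in the genome. It was lower in cortex than in hippocampus too, by a smaller fold. It took 0.400%, 0.325%, 0.330% and 0.329% of gene counts in the cortex replicates and 0.424%, 0.521%, 0.414% and 0.432% in the hippocampus replicates. The ranges did not overlap (-0.34 ± 0.13, edgeR adjusted p = 0.478, DESeq2 adjusted p = 0.041). Unlike for Gm10800, cortex was not the lowest region, with a mean of 3702 CPM. On other plates the means were 1678 CPM in cerebellum, 3177 in facial nucleus, 3993 in corpus callosum and 4240 in spinal cord.

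**Figure D5:**
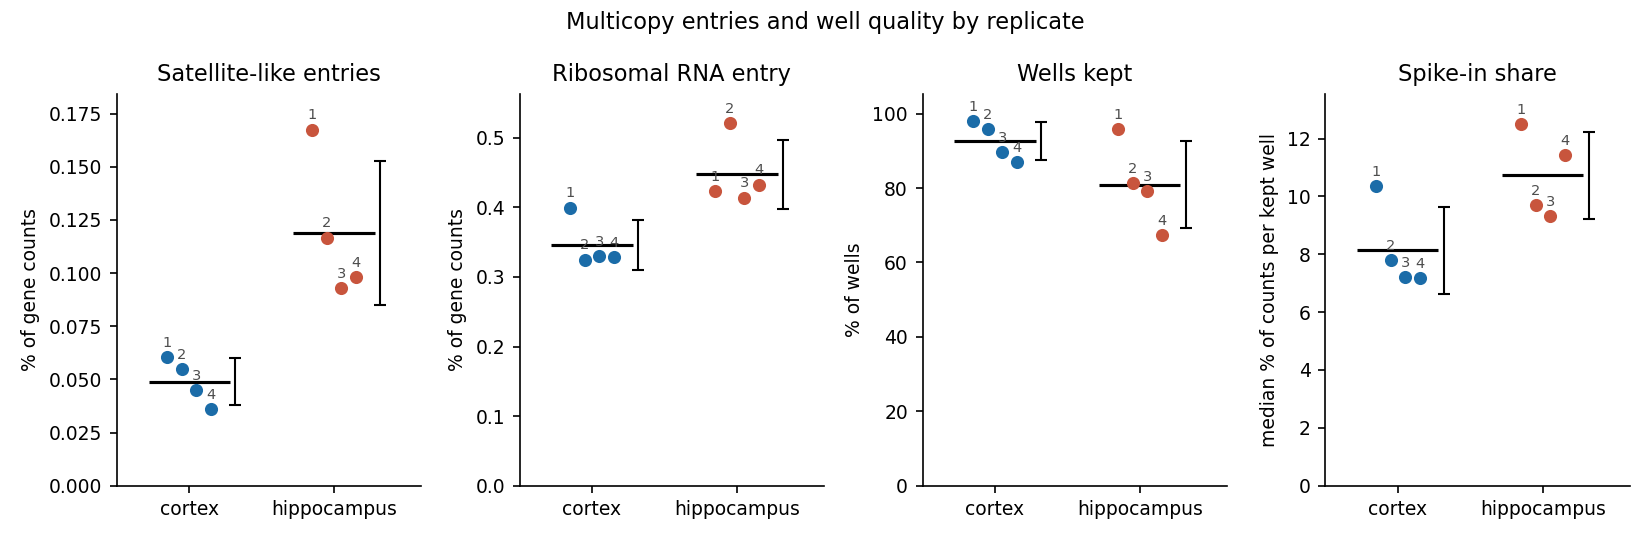
Share of gene counts in the 12 satellite-like entries and in the ribosomal RNA entry, share of wells kept, and median spike-in share of kept wells, for each replicate (vertical axes in percent from 0; line: mean; bar at the right: SD over 4 replicates). The satellite-like share is 0.0359% to 0.0605% in cortex and 0.0929% to 0.167% in hippocampus, and the shares of wells kept and of spike-in RNA overlap between regions.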

How the data were processed

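The deposited table holds raw read counts per gene and well: whole numbers with no normalisation by the authors, per the file's values. Alignment used STAR 2.5.2b and counting featureCounts 1.5.1 on GRCm38, per the submitters' processing notes; the release of the annotation was not given, nor the strand setting. Smart-seq2 keeps no strand, so reads where an antisense gene such as Gm26714 overlaps another gene cannot be assigned by strand. Whether such reads were counted or dropped was not given. Names and positions come from GENCODE vM21. A well was kept with at least 20000 gene counts, 500 genes, under 25% mitochondrial counts and under 50% spike-in counts. One cell was sorted per well, and no doublet caller was run. Kept wells were summed per replicate; among pairs of sums of 1 region none was identical. The 24 sums of the 6 untreated regions were fitted together in edgeR 4.0.16 (R 4.3.3; TMM scaling, filterByExpr with a minimum count of 10 and total of 15, robust quasi-likelihood test, Benjamini-Hochberg threshold 0.05), without a replicate block. Levels are TMM-scaled CPM, computed here. The fit was tested on simulated data. Intervals are from limma 3.58.1 (voom, span 0.1, chosen after seeing that the default trend failed at high levels). Shares and quality measures were compared by exact two-sided permutation tests. DESeq2 1.42.0, other scalings, filters, weights and replicate omissions were alternatives; DESeq2 on widely read genes was added after seeing the data.

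Named genes are P2ry12, Apoe and Spp1, any gene edgeR called, the 10 with the smallest p in each direction among widely read genes, the 10 most abundant, up to 4 members of each list (the 2 most abundant and the 2 with the smallest p) and the panel; other list members are given as examples chosen after their values were seen. Members, lists and panel were chosen with earlier results of these data known. Some genes that this rule names are not reported here.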

Additional observations from a re-analysis of the deposited data

Results flagged for a closer look

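In 112 sets of 4 replicates, 17 had 1 replicate far from the other 3 by Dixon's criterion; chance gives about 1 in 20 sets. Spp1 was at 206 CPM in hippocampus replicate 4, where the next replicate was at 22.4 CPM and 1 cell held 1745 of 1748 reads. In hippocampus 1700017B05Rik reached 590 CPM in replicate 4 (next 424) and Cdca4 289 CPM in replicate 1 (next 115). Cells of hippocampus replicate 1 had a median of 2485.5 genes, against 2754 in the next replicate.

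The others were shares of thinned cells with a read, most of them set by 1 to 3 cells. One cortex replicate stood at 97.9% for Tmem119 and 1 at 97.9% for Cx3cr1, with the others at 100%. The share was above 0 in a single cortex replicate for Ccl3 (2.13%), Il1b (4.26%), Ifit3 (6.98%), Ifi27l2a (4.26%), H2-Aa (2.13%) and Fos (2.13%). It was above 0 in a single hippocampus replicate for Ccl3 (2.56%), Ifi27l2a (2.63%), Fos (2.56%) and Mrc1 (2.56%). Jun was low in 1 cortex replicate, at 21.7% against 25% in the next.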

How the results depend on the processing

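The count of genes called by edgeR was 0, and it was 731 with DESeq2, 10 with limma-voom and 1 with equal weight for each cell; leaving out 1 replicate gave 0 to 1 (Trim21 without hippocampus replicate 3, Gm26714 without hippocampus replicate 4). Members of the gene lists called went from 0 to 8 with DESeq2 (C3, Cd8a, Cldn11, Egr2, Ifi44, Igf1, Lyz2 and Stmn2). For the panel shares and quality measures the count was 0 throughout, which says nothing of stability, since a single measure at the smallest possible p would have an adjusted p of 0.629 and 0.143. The single genes followed include those picked for a small p in these same data, and the settings reuse largely the same cells. Their direction is thus partly fixed by the choice, and the next count says little of stability. Over 32 single genes and 23 settings, 715 of 734 values kept their direction and side of the threshold, 10 passed it and 9 changed sign. Those 9 were Fth1 at 0.0606 when log values were averaged over cells, Ctsd at -0.0081 without cortex replicate 3 and -0.0078 without hippocampus replicate 1, and Sparc at 0.0024 with equal weight, 0.0053 with averaged log values, 0.0029 with no well filter, 0.00047 without cortex replicate 2, 0.013 without hippocampus replicate 3 and 0.015 without hippocampus replicate 4. Leaving out 1 replicate, Ctsd ran from -0.0081 to 0.163 and Sparc from -0.0763 to 0.015. The cause was not tested.

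With the replicate number as a block, 0 genes were called over 6 regions (1454 at an unadjusted p under 0.05) and 0 over the 2 regions. Deviations of same-numbered cortex and hippocampus sums correlated at 0.0702 to 0.0864, and those of other numbers at -0.0585 to -0.00095; each of the 8 sums correlated best with its own number, a hint from the data and not from the design. Depth and spread limit the less abundant genes, most of whose intervals reach beyond a 2-fold change.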
